A study of Danio rerio with 16 samples.

Results

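The transcriptome of the normal zebrafish heart at 48 h post-fertilization (hpf) was described from the 8 libraries titled as controls, out of 16 libraries in the series, and the other 8 were not analysed here. Each control (CTRL) library held poly(A)-selected RNA from a separate pool of 35–70 dissected embryonic hearts of the Tubingen strain, and pools are numbered here by their replicate number. The labels give the genotype as sibling control and the series description as wild type, so the alleles that single control embryos carried at *rbfox1l* and *rbfox2*, the genes the study targeted, are not known. All control embryos carried the *Tg(myl7:GFP)* reporter, in which the *myl7* promoter drives GFP in cardiomyocytes, and their hearts were dissected under a fluorescence microscope, with no step of cell sorting described.

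At 48 hpf the zebrafish heart is a beating, looped tube in which a ventricle and an atrium are joined by the atrioventricular canal (AVC), where the valve forms. Its wall has an outer layer of cardiomyocytes, which contract through sarcomeres of actin, myosin and their regulators and draw their energy from glycolysis and mitochondria. The inner layer is the endocardium, a specialised endothelium through which primitive red blood cells flow.

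Between 8809208 and 12991978 reads per library (median 9899213.5) were counted on genes. Reads on no gene made up 61.2% to 65.4% per library and those not unique 12.8% to 14.5%, and neither is described here. The table lists 15419 genes, of which 14185 had at least 1 read in some pool and 9921 reached 1 CPM in all 8 pools. CPM are gene counts scaled to a common library size with TMM factors, and each ± gives the SD (n = 8 pools). A mean of at least 10 CPM was reached by 7883 genes, of at least 100 CPM by 1937 genes and of at least 1000 CPM by 106 genes. No 2 pools were alike within sampling noise (chi-square of 10.8 to 73.0 per gene over 28 pairs), so each counted as 1 sample. Per the study's reporting summary, each biological replicate came from several independent crosses, and which crosses or days went into which pool is not given. Pool 5 stood apart from the other 7 in several summed levels given below, as did pool 8 in those of skeletal muscle.

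Reads were concentrated on contractile and energy genes. *actc1a*, a cardiac actin, was the highest gene by CPM in every pool, with 16577 CPM in pool 2, a median of 25659 CPM and 34408 CPM in pool 1. Its share of gene reads was between 1.81% and 3.21%. *gapdh*, an enzyme of glycolysis, followed with 16752 ± 2991 CPM, and then came *myh7*, the ventricular myosin heavy chain also known as *vmhc*, with 15013 ± 4390 CPM. *myl7*, the regulatory light chain of cardiac myosin, had 13869 ± 2964 CPM. *myh7l*, a second ventricular myosin heavy chain also known as *vmhcl*, had 10577 ± 2114 CPM. *nppa*, which encodes a natriuretic peptide, had 9531 ± 2651 CPM. These 6 genes were among the 8 highest in every pool.

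The next ranks mixed mitochondrial, contractile and cytoskeletal genes. *slc25a5*, which exchanges ATP and ADP across the inner mitochondrial membrane, had 8118 ± 1017 CPM, and the actin *acta1b* had 7244 ± 1805 CPM. *cmlc1*, the essential light chain of cardiac myosin, had 6929 ± 1383 CPM, and *actb2*, a cytoplasmic actin, had 5794 ± 721 CPM. The 10 genes together took 11.9% ± 1.88 of gene reads, from 9.09% in pool 2 to 14.8% in pool 1. Between 400 genes in pool 1 and 579 genes in pool 2 held 50% of the reads (median 465.5).

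Ranks 11 to 25 held the glycolytic aldolase *aldoaa* (5303 CPM), the actin-binding peptide *tmsb4x* (5027 CPM), the translation factor *eef1a1l1* (4346 CPM), tropomyosin *tpm4a* (4117 CPM), the atrial myosin heavy chain *myh6* (3778 CPM) and the troponins *tnnt2a* (3363 CPM) and *tnni1b* (3177 CPM). They also held the tetraspanin *cd81a* (3256 CPM), the cytoplasmic actin *actb1* (3182 CPM), the ATP synthase subunit *atp5f1b* (3151 CPM), the sodium pump *atp1a1a.1* (2899 CPM) and the calcium pump *atp2a2a* (2518 CPM). The remaining 3 were keratin genes of the skin, *krt4* (4872 ± 2723 CPM), *cyt1* (3106 ± 1561 CPM) and *cyt1l* (2454 ± 1225 CPM). Their ranks moved far between pools. *krt4* ranked between 5 and 34, *cyt1* between 12 and 85 and *cyt1l* between 15 and 101. By contrast, 15 genes were among the 25 highest of all 8 pools. Reads that match near-identical copies equally well, as among the actins and the myosin heavy chains, count as not unique and were left out. The values of single copies and of their sums are thus uncertain and may be too low.

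**Figure D1:**
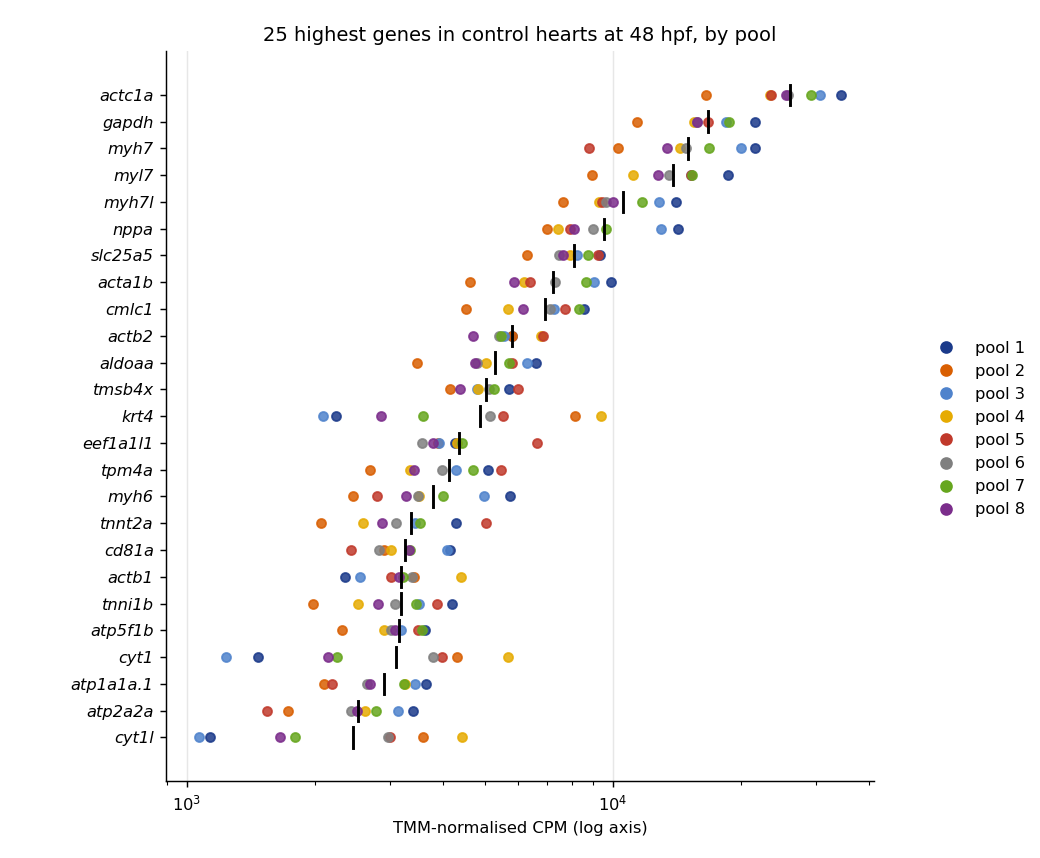
CPM (x axis, log scale) of the 25 genes with the highest mean, 1 row a gene; each point is 1 pool and the black bar is the mean of the 8 pools. Contractile genes were lowest in pool 2 or pool 5, whereas *krt4*, *cyt1* and *cyt1l* were highest in pool 4 and lowest in pool 3.

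Ranking by FPKM, which divides by a length, gave a different order. The length behind the deposited FPKM was constant for each gene and close to its span with introns. In 12542 genes with a span in RefSeq's GRCz12tu annotation, a later assembly, the median ratio was 0.994 and 71.3% lay within 10%. At equal counts a gene with short introns therefore ranks higher. Different genes are set side by side below in FPKM, per kb of this length. It is called span below, although in single genes it can differ from the true span. CPM is not divided by a length, and this FPKM is in general not divided by transcript length. An order of genes in either is thus not one of transcript levels. A low FPKM of a long gene is no sign of few transcripts. *cmlc1* was the highest with 8612 ± 1387 FPKM over a length of only 0.799 kb, ahead of *actc1a* (4083 ± 723 FPKM), *gapdh* (3378 FPKM), *slc25a5* (3309 FPKM) and *tmsb4x* (3156 FPKM). *nppa* (2046 FPKM), *myl7* (1758 FPKM), *cyt1* (1542 FPKM), *acta1b* (1338 FPKM), *eef1a1l1* (1300 FPKM), *cyt1l* (1234 FPKM) and *actb2* (1163 FPKM) were also among the 15 highest. The other 3 were the embryonic haemoglobins *hbbe1.1* (1946 FPKM), *hbbe1.3* (1201 FPKM) and *hbae3* (1148 FPKM), which ranked 61, 90 and 77 by CPM. *cmlc1* ranked 9 by CPM, and whether its length of 0.799 kb includes introns was not checked.

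Of the 50 highest genes by CPM and the 50 highest by FPKM, 29 (58% of each list) were shared. The median length was 19.1 kb for the 21 genes on the CPM list alone and 1.29 kb for the 21 on the FPKM list alone. The long genes included *atp2a2a* (57.7 kb, rank 24 by CPM and 461 by FPKM), *tnnt2a* (31.8 kb, ranks 17 and 195), *tpm4a* (24.1 kb, ranks 15 and 114) and *tnni1b* (19.1 kb, ranks 20 and 121). Across the 13585 genes with an FPKM value, which are not independent replicates, the Spearman correlation of both measures was 0.83. A further 1834 genes had no FPKM value, 25 of them with a mean of at least 100 CPM, and these could not be ranked per length. Among them were *uqcrc1* of complex III (869 CPM) and the sarcomere gene *actn2b* (305 CPM).

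The label of embryonic heart held against its defining markers. Of 25 pan-cardiomyocyte markers, 21 were in the table, and all 21 had a mean of at least 10 CPM. Together they took 8.62% ± 1.47 of gene reads, with a summed level from 56817 CPM in pool 2 to 115872 CPM in pool 1 (median 85798 CPM). *nkx2.5*, a transcription factor of cardiac progenitors and cardiomyocytes, had 171 ± 46.1 CPM. *popdc2*, a membrane protein of muscle needed for conduction, had 1198 ± 302 CPM. In bulk RNA, fewer cells of a type and less RNA per cell cannot be told apart.

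Ventricular markers took 2.57% ± 0.57 of gene reads and atrial markers 0.42% ± 0.10, most of it from the myosin heavy chains. These shares depend on the number and length of the genes listed, so they do not compare the chambers. Per kb of the length behind the FPKM, the ventricular *myh7* (1117 ± 301 FPKM) exceeded the atrial *myh6* (633 ± 164 FPKM) in every pool, by 1.76 ± 0.16 times. In CPM, with no division by length, the ratio was 3.97 ± 0.36, since the length behind the FPKM was 13.4 kb for *myh7* and 5.93 kb for *myh6*. Whether both lengths include introns was not checked. The ratio in FPKM was 1.397 in pool 5, 1.82 at the median and 1.89 in pool 6, and pool 5 had the lowest value. *myh7l* (687 ± 115 FPKM, span 15.3 kb) was at 1.11 ± 0.12 times *myh6* in FPKM, below it in 2 pools, but at 2.87 ± 0.31 times in CPM, above it in every pool. The order of these genes thus depends on the length used. The ratio of *myh7* to *myh7l* in FPKM was 1.07 in pool 5 and between 1.53 and 1.78 in the other 7, and in CPM it was 1.404 ± 0.21, with 0.934 in pool 5.

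Chamber transcription factors were far lower than the myosins. Of the ventricular factors, *irx1a* had 34.3 FPKM (144 ± 30.7 CPM), *hey2*, which acts in ventricular identity, 11.9 FPKM and *irx4a* 4.28 FPKM, while *irx4b* had 0.155 FPKM. Of the atrial genes, *nr2f1a*, a nuclear receptor needed for atrial identity, had 35.6 FPKM (241 ± 34.8 CPM), *smtnl1* 12.98 FPKM and *tbx5b* 1.402 FPKM. Each of the genes *irx1a*, *nr2f1a*, *smtnl1*, *myh6* and *myh7l* was highest in pool 1 and lowest in pool 2. No ventricular, atrial or AVC marker was among the variable genes defined below. As these lists are short, this is not told apart from the 8.03% of all genes tested.

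Per kb of span, the highest AVC markers were *bmp4*, a secreted signal of AVC myocardium, with 52.8 ± 10.9 FPKM, and the transcription factor *twist1b* with 44.4 ± 5.12 FPKM. *alcama*, an adhesion molecule, held the most reads of the list (1251 ± 262 CPM) but had 12.1 FPKM. The study also stained its protein in ventricular cardiomyocytes, so its reads may not be of the AVC alone. The hyaluronan synthase *has2* had 2.77 FPKM and the versicans *vcana* and *vcanb* 0.586 and 0.553 FPKM. Both *tbx2a* and *tbx2b*, factors of the AVC, were at or near 0 in every pool. Of 7 pacemaker and sinus venosus markers, only 4 were in the table, without *hcn4*, *hcn4l* and *fhf2a*. *tbx3a* (37.3 CPM), *isl1* (36.66 CPM), *tbx18* (18.6 CPM) and *shox2* (8.73 CPM) summed to 101 ± 17.8 CPM. The sum of this list, unlike those of the chambers, was highest in pool 2. Its mean log2 CPM was instead highest in pool 3 (4.76, against 4.47 in pool 2).

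Among 28 cardiac transcription factors in the table, 22 had a mean of at least 10 CPM. *hand2*, which acts in cardiac and pharyngeal mesenchyme alike, was the highest with 774 ± 74.7 FPKM (1189 CPM in pool 2 to 1662 CPM in pool 3). *gata5* had 62.1 FPKM (698 ± 158 CPM), *nkx2.5* 60.7 FPKM and its relative *nkx2.7* 40.5 FPKM. Below these lay *gata6* (31.7 FPKM, 342 ± 61.7 CPM), *tbx20* (9.93 FPKM) and *tbx5a* (7.29 FPKM), whereas *gata4* had 1.09 FPKM, the lowest of the 3 GATA genes listed. The targeted genes were detected in all pools. *rbfox1l*, a splicing factor, ranged from 252 CPM in pool 2 through a median of 406 to 631 CPM in pool 1, and *rbfox2* ranged from 45.6 CPM in pool 8 through a median of 77.9 to 142 CPM in pool 5. Their lowest and highest pools were not the same.

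The sarcomere list took 10.4% ± 1.77 of gene reads, with 34 of 44 members in the table at a mean of at least 10 CPM. Besides the genes above, *mybpc3*, a myosin-binding protein of the thick filament, had 2292 CPM, and *tnnc1a*, cardiac troponin C, had 1675 CPM. The giant genes *ttn.1* and *ttn.2* were not among the symbols of the table and were not analysed here. Of the 36 genes listed for calcium handling and excitation, 28 were in the table. The most reads fell on the sodium pump subunits *atp1a1a.1* and *atp1b1a* (2230 CPM), the pump *atp2a2a* of the sarcoplasmic reticulum and its inhibitor *pln* (2006 CPM). Per kb of span, *pln* had 127 FPKM, the calcium store protein *casq2* 99.95 FPKM, *atp2a2a* 43.5 FPKM and the sodium-calcium exchanger *slc8a1a* 16.03 FPKM. Of the channels, the potassium channel *kcnh6a* had 6.45 FPKM (356 CPM), the calcium channel *cacna1c* 0.27 FPKM (42.5 CPM) and the sodium channel *scn5lab* 0.181 FPKM (34.5 CPM).

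Glycolysis and hypoxia genes took 3.14% ± 0.40 of gene reads, of which *gapdh* and *aldoaa* were the larger part. *pkma*, a pyruvate kinase, had 1684 ± 265 CPM. For lactate dehydrogenase, *ldhba* had 2229 ± 295 CPM (328 FPKM) and *ldha* 1399 ± 335 CPM (166 FPKM). ATP synthase genes took 1.67% ± 0.14 of gene reads, complex I genes 0.90% ± 0.09, complex IV genes 0.69% ± 0.08, complex III genes 0.55% ± 0.05 and complex II genes 0.15% ± 0.02. Such shares depend on the number and length of the genes listed. No gene of the mitochondrial genome was among the 50 highest by CPM or by FPKM, so these shares may leave out subunits encoded there. All 9 complex III genes exceeded 100 CPM in the mean. Of the 43 complex I genes, which include assembly factors, 34 exceeded 10 CPM and 4 were at 0 in every pool. Each of these 5 lists was lowest in pool 2, and all but complex II were highest in pool 5. The cytosolic ribosome list took 3.86% ± 0.41 of gene reads and the mitochondrial ribosome list 0.52% ± 0.04. Summed levels of the cytosolic ribosome were 34262 to 40029 CPM in 7 pools and 49261 CPM in pool 5.

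Cell cycle genes were present in reads. Of 22 listed, 20 had a mean of at least 10 CPM and 12 of at least 100 CPM, led by *pcna* (571 ± 82.6 CPM), the clamp of DNA polymerase, and the helicase subunit *mcm2* (313 ± 54.6 CPM). *mki67*, a marker of cycling cells, had 235 CPM. The remaining 2, the mitotic kinases *cdk1* and *plk1*, had only 2 and 5 reads over all 82633576 gene reads of the 8 pools. As cycling cells use both kinases, a count near 0 in this table is no sign that a gene was silent. In all, 1234 genes had no read in any pool, which allows up to 0.0363 CPM by counting error alone.

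Endocardial and endothelial markers took 0.40% ± 0.06 of gene reads, and 27 of 29 in the table had a mean of at least 10 CPM. *gata5*, which is shared with the myocardium, *podxl* (690 ± 134 CPM) and the endothelial transcription factor *fli1a* (296 ± 27.6 CPM) were among those with the most reads. Of 27 tested, 4 were among the variable genes defined below, against 8.03% of all genes tested. These were the vascular receptors and junction genes *cdh5* (111 to 271 CPM), *tie1* (106 to 264 CPM), *kdrl* (30.5 to 106 CPM) and *stab1* (96.5 to 214 CPM), all lowest in pool 5. The summed level of the list was instead lowest in pool 2 (3090 CPM), with 3549 CPM in pool 5. The flow-responsive factor *klf2b* had 29.5 FPKM, the receptor *notch1b* 1.43 FPKM and *nfatc1*, a factor of the endocardium, 0.914 FPKM. *flt1* had 0.851 CPM and *spock3* was at 0 in every pool.

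Outflow tract and smooth muscle markers summed to 1316 ± 233 CPM, led by *acta2* (472 ± 136 CPM), a smooth muscle actin also present in embryonic myocardium, *ltbp3* (333 ± 79.8 CPM), which marks outflow tract progenitors, and *fbln5* (226 ± 34.7 CPM). The elastins *elna* and *elnb* had 4.41 and 4.76 CPM. Epicardial markers summed to 879 ± 120 CPM, of which *krt94* (569 ± 77.2 CPM) and *tgm2b* (183 ± 39.7 CPM) gave most. The defining epicardial factors had few reads, with 2.99 CPM for *tcf21*, 5.69 CPM for *wt1a* and 17.6 CPM for *wt1b*, and *aldh1a2* was at 0 in every pool.

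Of 22 valve and flow genes listed, 18 were in the table and 13 had a mean of at least 10 CPM. Of 35 matrix and basement membrane genes listed, 25 were in the table and 21 reached that mean. Among those not in the table were *col4a1*, *col4a2* and *hspg2*. *hapln1a*, which links hyaluronan in the cardiac jelly, had 661 ± 91.6 CPM, from 521 CPM in pool 8 to 773 CPM in pool 5. The fibronectin *fn1b* had 13.1 FPKM (505 ± 211 CPM) and its paralogue *fn1a* 3.89 FPKM (244 ± 35.1 CPM). The collagens *col1a2* and *col1a1b* had 1312 ± 435 and 838 ± 261 CPM and the matrix protein *sparc* 735 ± 161 CPM, whereas *col1a1a* was at 0 in every pool.

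Genes of red blood cells were present in every pool. The 15 haemoglobin genes in the table summed to 6173 ± 1907 CPM, from 3369 CPM in pool 5 through a median of 6474 to 8858 CPM in pool 1. *hbbe1.1* had 748 CPM in pool 5, a median of 1637 and 2054 CPM in pool 7. Its ratio to *hbae3* in FPKM stayed between 1.55 and 1.83, and in CPM between 1.02 and 1.21. The embryonic *hbbe* and *hbae* genes carried the reads, and the later *hbba1*, *hbba2*, *hbaa1* and *hbaa2* each had under 1 CPM. Reads that match several haemoglobin copies equally well were left out as not unique, so single values and the sum may be too low. Other red cell genes summed to 1742 ± 321 CPM, led by *rhag* (431 ± 86.3 CPM) and *sptb* (354 ± 89.1 CPM). *alas2*, which begins haem synthesis, had 0.156 CPM, and *gata1a* had 1 read in all. Leukocyte markers were few, with 297 ± 63.9 CPM for *lyz* and 69.7 ± 17.2 CPM for *mpx*, both of granulocytes and early macrophages, and 0 for *mpeg1.1* in every pool.

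Markers of tissue outside the heart were present too. Summed levels are of reads, with no correction for length, so a list is compared only with itself between pools. Epidermal genes took 1.73% ± 0.87 of gene reads, from a summed 7606 CPM in pool 3 and 8172 CPM in pool 1 to 30097 CPM in pool 4. The factor *tp63*, which marks basal keratinocytes, had 19.5 CPM in pool 3, a median of 45.3 and 104 CPM in pool 4. Within this list, *krt5* (0.337 CPM) and *epcam* (0.0466 CPM) were near 0. Pharyngeal arch and neural crest genes summed to 2068 ± 160 CPM, but 1447 CPM of that was *hand2*. The skeletal muscle list summed to 1206 to 1781 CPM in 7 pools and to 2426 CPM in pool 8, with the actin *acta1a* (838 ± 259 CPM) as its largest member. Liver, gut and yolk genes summed to 1728 ± 579 CPM, led by *apoeb* (481 ± 222 CPM), and 12 of 22 were below 10 CPM. Neuronal genes summed to 210 to 295 CPM in 7 pools and to 441 CPM in pool 2.

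**Figure D2:**
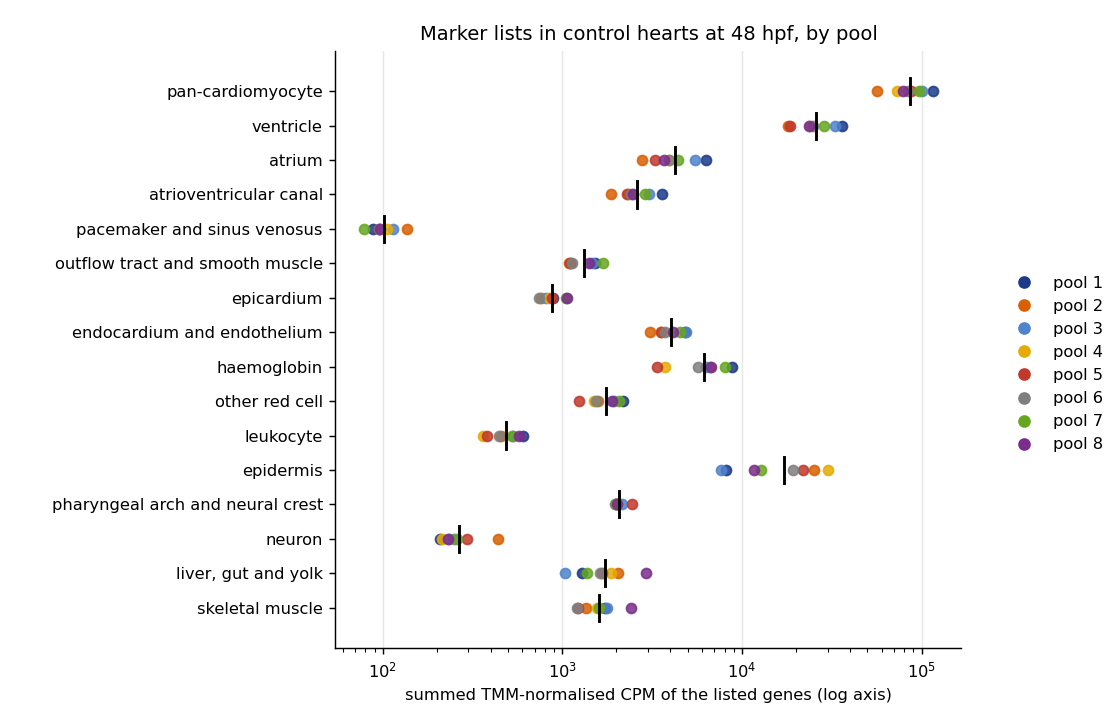
Summed CPM (x axis, log scale) of the listed genes of 16 cell types or regions; each point is 1 pool and the black bar is the mean. Epidermal genes had the widest range, with pools 1 and 3 at the low end and pools 2, 4 and 5 at the high end, and the cardiomyocyte list ran from pool 2 to pool 1.

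For each of the 7883 genes with a mean of at least 10 CPM, the SD of log2 CPM over the 8 pools was set against the running median of genes of like level. The median SD was 0.25, and the median gene differed 1.69 times between its lowest and its highest pool. An SD of at least 2 times the trend was found in 633 genes (8.03%). This is a description with no test, as no labelled factor separates the pools. At the threshold, *mafaa*, *ifitm1* and *btr12* lay just inside and *fstl1a*, *pip5k1aa* and *h2az2b* just outside.

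**Figure D3:**
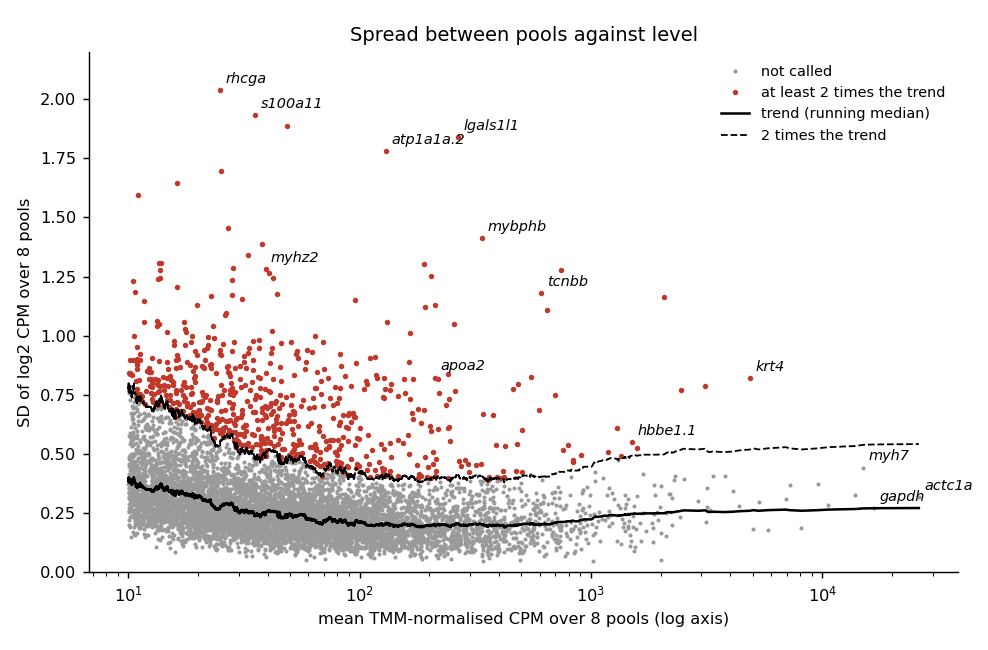
SD of log2 CPM over the 8 pools (y axis) against mean CPM (x axis, log scale) for 7883 genes; the line is the running median, the dashed line 2 times it, and red points are the 633 genes at or above it. The highest contractile genes lay below the dashed line, and *krt4* and *hbbe1.1* above it.

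The largest spread for its level was that of *lgals1l1*, a galectin-like gene, at 8.997 times the trend. It had 31.8 and 19.4 CPM in pools 1 and 3, between 119 and 258 CPM in pools 6, 7 and 8, and 461, 437 and 643 CPM in pools 2, 4 and 5. Pools 1 and 3 were thus lower than all others by at least 3 times. *atp1a1a.2* (8.80 times the trend), a sodium pump subunit known from skin ionocytes, had 9.57 CPM in pool 1, a median of 127 and 260 CPM in pool 4. *rhcga* (7.604 times), an ammonia channel of the Rh family, had 1.65 CPM in pool 1, a median of 12.9 and 96.2 CPM in pool 5. *s100a11* (7.99 times), a calcium-binding protein, had 1.32 CPM in pool 3 and 86.2 CPM in pool 2. *rbp4* (6.73 times), a retinol carrier, had 34.1 CPM in pool 3 and 349 CPM in pool 4. Also among the 10 most variable genes were *si:dkey-33c14.3* (8.20 times, 4.25 to 129 CPM), *mybphb* (7.09 times, 66.5 to 774 CPM), *irg1l* (6.35 times, 26.2 to 391 CPM), *si:ch1073-340i21.3* (6.08 times, 3.65 to 85.1 CPM) and *ptgdsb.1*, a prostaglandin D synthase gene (6.02 times, 126 to 1744 CPM).

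Genes with the most similar profile to the top 3 were found by Pearson's r of log2 CPM over the 8 pools. For *lgals1l1* they were *itm2bb*, *entpd3*, *sult2st1*, *tcnbb* and *rbp4* (r 0.98 to 0.99). For *atp1a1a.2* they were *atp1b1b*, which encodes a beta subunit of the sodium pump, *cldnh*, a tight junction claudin, *ephx1*, *esco2* and *naga* (r 0.96 to 0.98). For *si:dkey-33c14.3* they were *cyp2aa6*, *cfl1l*, *crp4*, *entpd3* and *zgc:85932* (r of at least 0.99). These genes were picked as the nearest of 7883, so the coefficients describe likeness and carry no test.

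The steadiest genes with a mean of at least 100 CPM were the co-chaperone *stip1* (342 ± 10.8 CPM), the translation factor *eif5a2* (1019 ± 32.8 CPM), the ribosomal protein *rpl23a* (493 ± 17.5 CPM), the tubulin *tuba8l* (2014 ± 73.4 CPM) and the phosphatase subunit *ppp6r3* (249 ± 9.39 CPM). *stip1* stayed between 329 and 362 CPM in all 8 pools. Against these, *gapdh* ranged from 11403 to 21618 CPM and *actb1* from 2350 to 4404 CPM.

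Counts of variable members differed widely between lists, against 8.03% of all genes tested. Epidermal genes had 19 variable members of 20 tested, and the 9 haemoglobin genes tested were all variable, of which 4 were so without pool 4. Liver, gut and yolk genes had 9 of 10 and skeletal muscle 9 of 10 (6 and 5 without pool 8), and pharyngeal arch and neural crest 6 of 12. The short lists of pan-cardiomyocyte, ventricular, atrial and AVC genes had counts not told apart from the 8.03% of all genes. Their median SD was 1.42, 1.33, 1.42 and 1.33 times the trend. Pan-cardiomyocyte genes had 1 of 21, the connexin *cx36.7* (48.3 CPM in pool 4 to 121 CPM in pool 1). They had 4 variable members without pool 5 and 0 without pool 1, 2 or 4. The longer sarcomere list had 8 of 34, which were *acta1a*, *acta2*, *actc1b*, *myl10*, *myom2a*, *tnnc1b*, *tpm2* and *tpma*. None of the 12 sarcomere genes among the 50 highest by CPM was variable. The sarcomere list had 11 variable members without pool 5, 5 without pool 2 and 3 when scaled on the cardiomyocyte list. The 5 ventricular, 4 atrial and 6 AVC genes had 0. Without pool 5 there was 1 in each of these lists, and in the AVC list also without any 1 of pools 3, 4, 6, 7 and 8. There were also 0 among 34 complex I, 9 complex III, 14 complex IV, 18 ATP synthase, 64 mitochondrial ribosome and 36 proteasome genes, also with any 1 pool left out, while the cytosolic ribosome had 1 of 69 (0 without pool 5, 2 without any 1 of pools 1, 2, 4, 6, 7 and 8). As members of a list share their cells, their spreads are not independent. When libraries were scaled on the cardiomyocyte list, 465 genes were variable (430 of the 633 and 35 others). Under this scaling, 18 epidermal, 8 skeletal muscle and 6 pharyngeal arch genes were variable, but 1 haemoglobin gene, and 0 endocardial genes in place of 4 (2 without pool 5).

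Pools 1 and 3 were the lowest pair for 227 of the 633 variable genes (35.9%) and for 8.69% of all genes tested. Pools 2, 4 and 5 were the highest 3 for 214 variable genes (33.8%) and for 7.76% of all. This division of pools was read from these values and was not tested. Principal components of the 7883 genes were taken from the same log2 CPM, so their likeness to it is no separate support. The first held 40.6% of the variance and set pools 1 and 3, at the low end, against pools 2, 4 and 5, with *rhcga*, *si:dkey-33c14.3*, *lgals1l1* and *s100a11* at the high end. The second (22.8%) set pool 5 against pools 2 and 4, and the next (10.4%) set pool 8 against pool 4.

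Many epidermal genes followed this order. *krt4* had 2242 and 2086 CPM in pools 1 and 3 and 8140, 9383 and 5537 CPM in pools 2, 4 and 5, and *krtt1c19e* ranged from 473 CPM in pool 3 to 3433 CPM in pool 4. The claudins *cldne* (85.9 to 317 CPM) and *cldnb* (58.8 to 234 CPM), which seal epithelia, the cadherin *cdh1* (83.5 to 193 CPM) and *icn* of the S100 family (556 to 1314 CPM) were each lowest in pool 3. *and2*, an actinodin of the fin fold, was the exception, with 214 CPM in pool 3 and 34.7 CPM in pool 2. The pharyngeal arch factors *dlx5a* (27.3 CPM in pool 1 to 126 CPM in pool 5), *dlx2a* (21.0 to 75.5 CPM) and *barx1* (29.4 to 109 CPM) were also highest in pool 5. Of 21 matrix genes tested, 3 varied (6 without pool 5, 5 without pool 6 or pool 8). They were *fn1b* (234 to 902 CPM) and *col1a1b* (464 to 1257 CPM), both lowest in pool 3 and highest in pool 4, and *tgfbi* (85.4 CPM in pool 1 to 370 CPM in pool 2). The part of skin or arch tissue in these differences was not tested beyond the relation given below.

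A second group was highest in pool 8. The fast skeletal myosins *myhz2* (7.28 CPM in pool 3, median 26.0, 131 CPM in pool 8), *myhz1.1* (6.05 to 131 CPM) and *myhz1.2* (6.71 to 112 CPM), the tropomyosin *tpma* (26.7 to 221 CPM), the calcium pump *atp2a1* (44.5 to 332 CPM) and the actin *actc1b* (390 to 1545 CPM) all peaked there. So did the lipid carriers *apoa2* (91.4 to 573 CPM), *apoa1b* (128 to 627 CPM) and *apobb.1* (60.98 to 399 CPM). The myogenic factors *myog* (25.1 to 98.3 CPM) and *myod1* (22.6 to 76.6 CPM) were also highest in pool 8, whereas the actin *acta1a* was highest in pool 3. Several defining markers of fast muscle in the list, *mylpfa*, *tnnc2* and *pvalb2*, were at 0 in every pool.

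Another group split the pools in another way. *mybphb*, a myosin-binding protein H, had 538, 774 and 773 CPM in pools 3, 4 and 5 and between 66.5 and 208 CPM in the other 5. This division of pools was read from the values of *mybphb* themselves and was not tested. *bmp5*, a secreted growth factor, had 228, 222 and 286 CPM in pools 3, 4 and 5 against 43.3 to 79.6 CPM, and *asb2b*, related to a ubiquitin ligase subunit of mouse muscle, had 53.9 to 70.6 CPM against 11.2 to 14.4 CPM. This likeness was picked after the values were seen (r with *mybphb* 0.98 for *bmp5* and 0.93 for *asb2b*), and the division of pools matched neither the epidermal nor the muscle group.

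**Figure D4:**
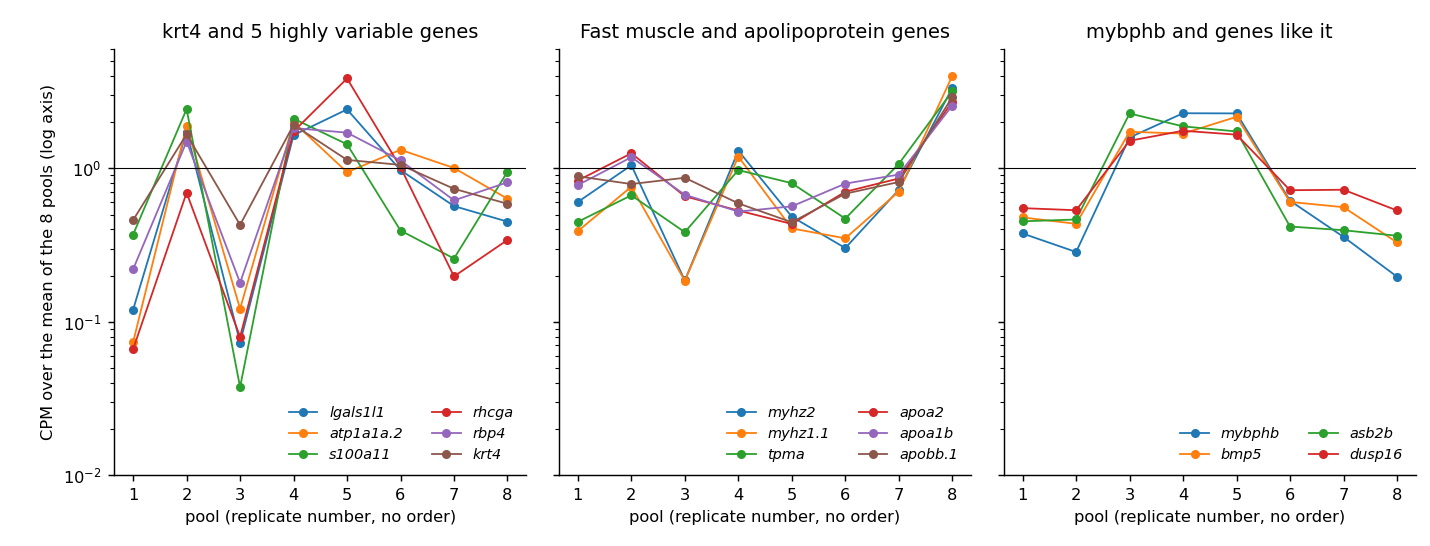
CPM of each gene over its mean in the 8 pools (y axis, log scale) by pool (x axis, replicate number without order), in 3 groups of variable genes. Pools 1 and 3 were low in the left panel, pool 8 was high in the middle panel and pools 3, 4 and 5 were high in the right panel.

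Of the remaining lists, stress and immediate early genes had 5 variable members of 16 tested, against 8.03% of all genes tested. There were 2 without pool 5 or pool 8, 3 without pool 3 and 1 when scaled on the cardiomyocyte list. Among the 5 were *fosab* (13.4 CPM in pool 8, median 19.2, 86.3 CPM in pool 5) and *ier2a* (40.5 to 131 CPM). *jun* was steady at 467 ± 34.2 CPM. Fatty acid and energy buffer genes had 3 of 19, including the fatty acid carrier *fabp3* (481 CPM in pool 4 to 1166 CPM in pool 5). In that list there were 2 without any 1 of pools 2, 3 and 8, and 1 when scaled on the cardiomyocyte list. Of the cardiac transcription factors, 2 of 22 tested were variable (9.09%), near the 8.03% of all genes tested. *tbx20* (98.4 CPM in pool 4 to 211 CPM in pool 1) was among them. This list had 0 variable members without pool 3 or pool 4 and 6 without pool 5. *rbfox1l* (2.17 times the trend) and *rbfox2* (2.72 times) were both among the variable genes.

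Whether levels of cell types moved together was asked in 4 relations over the 8 pools, each by Pearson's r and Spearman's rho with two-sided exact permutation tests and Benjamini-Hochberg adjustment over the 8 coefficients (smallest possible p 4.96e-05). The level of a list was the mean log2 CPM of its members with a mean of at least 1 CPM. These relations were chosen with earlier results of these data known, and levels scaled to the same library total are not independent of each other.

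Cardiomyocyte and epidermal levels ran in opposite directions (r = −0.75, exact permutation p = 0.0274, adjusted p = 0.0460; rho = −0.79, adjusted p = 0.0460). Pools 1 and 3 combined high cardiomyocyte with low epidermal levels, and pool 2 the reverse. Without pools 2 and 1, the farthest from the median cardiomyocyte level, r was −0.67 (exact permutation p = 0.144, n = 6), of like size but no longer past the threshold. Cardiomyocyte and endocardial levels ran together (r = 0.75, exact permutation p = 0.0287, adjusted p = 0.0460; rho = 0.76, adjusted p = 0.0490). Without pools 2 and 1, r was 0.58 (exact permutation p = 0.228, n = 6), also not past the threshold. Both calls were also lost with any 1 of pools 1, 2, 3, 4, 6 and 7 left out, when r was between 0.598 and 0.751 for the endocardial and between −0.748 and −0.674 for the epidermal level. For cardiomyocyte and haemoglobin levels r was 0.52 (exact permutation p = 0.187, adjusted p = 0.197; rho = 0.52, adjusted p = 0.197), so no relation was shown with 8 pools.

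The clearest relation was that of the chamber myosins. *myh6* and *myh7* had r = 0.95 (exact permutation p = 0.00119, adjusted p = 0.00476) and rho = 0.95 (adjusted p = 0.00476). Without pools 1 and 2, r was 0.94 (exact permutation p = 0.0139, n = 6). *myh6* ran from 2453 CPM in pool 2 to 5731 CPM in pool 1, and *myh7* from 8811 CPM in pool 5 to 21583 CPM in pool 1. *myh7* was closer still to the pan-cardiomyocyte markers *slc8a1a* (r = 0.99) and *atp2a2a* (r = 0.98), picked as among its nearest genes. Such likeness is thus not particular to the chamber myosins, and a link between the chambers was not tested.

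**Figure D5:**
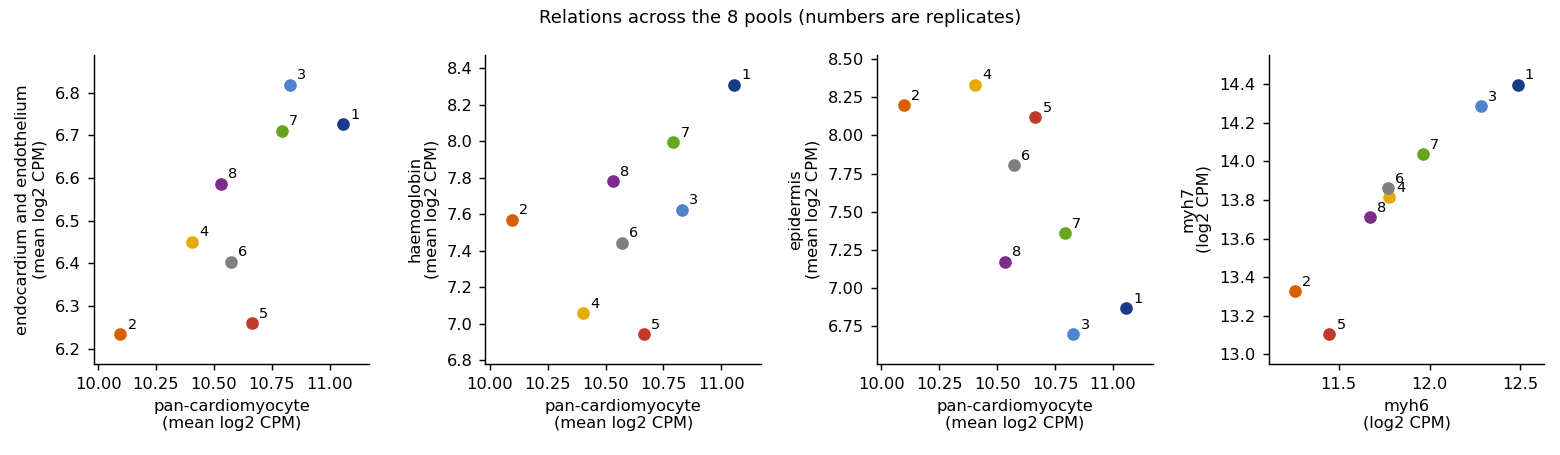
Each point is 1 of the 8 pools, with its replicate number; the axes are mean log2 CPM of 2 marker lists or log2 CPM of *myh6* and *myh7*. The chamber myosins lay close to a line, whereas the haemoglobin level varied at like cardiomyocyte level.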

How the data were processed

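Poly(A) RNA of 8 CTRL pools was sequenced as paired reads of 150 bp. The authors aligned reads to GRCz11 with STAR 2.6.1a and deposited raw counts per RefSeq gene from HTSeq 0.11.2; the strand setting is not given in the sources used here. FPKM values were deposited by the authors and equal the count over the library total and a fixed length per gene; 8 FPKM columns of other samples were not used. Reads on no gene (61.2% to 65.4% per library), not unique (12.8% to 14.5%) or ambiguous (0.0287% to 0.0411%) were left out of library sizes. Total gene reads per library set the precision, and floors cover counting error only.

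TMM factors and log2 CPM (prior count 2) came from edgeR 4.0.16 in R 4.3.3 over the CTRL libraries alone. Spread was compared with a running median over 201 genes (Python 3.11.15, pandas 2.3.3), and the script was tested on simulated data. Correlations were tested by enumerating all permutations (numpy 2.4.6). Figures were drawn with matplotlib 3.10.9. The alternatives were other scalings (library size, DESeq2 1.42.0 size factors, without haemoglobins, cardiomyocyte list), filters, pseudocounts, measures of spread, thresholds and each pool left out. Counts of variable list members without a pool or scaled on the cardiomyocyte list, and without pools 5 and 8 together, were chosen after seeing the data.

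The pools, the 38 gene lists and the rules were chosen with earlier results of these data known. Genes named are the 25 highest by CPM, the 15 highest by FPKM, the 10 most variable, the 5 steadiest, 3 on each side of the threshold, the targeted genes, genes of like profile, and list members, of which the 3 highest and the variable ones were given values first. Other members with values (such as *irx4a*, *tcf21* or *cdk1*), *bmp5* and *asb2b* were chosen after their values were seen. List entries were matched by symbol or through RefSeq synonyms (GRCz12tu), and 14311 of 15419 symbols matched that annotation. Samples were grouped by title. One list member is not reported here.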

Additional observations from a re-analysis of the deposited data

Results flagged for a closer look

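A value was marked when the highest or lowest of the 8 pools stood apart from the other 7 by Dixon's test at the 95% level, which chance does in about 5% of items. Of 102 items tested (64 named genes and 38 lists), 10 (9.80%) were marked, and 7 of them were high in pool 5. Some named genes were chosen for their spread, and some are members of the lists. The items are thus not independent, and their share cannot be set against 5%.

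In pool 5, the summed level of the translation elongation genes was 12507 CPM against 6770 to 8361 CPM in the other pools, with *eef1a1l1* at 6628 CPM against 3570 to 4426 CPM. The cytosolic ribosome list stood at 49261 CPM against 34262 to 40029 CPM and the histone list at 5014 CPM against 2726 to 3302 CPM, with the histone variant gene *h2az2b* at 353 CPM against 145 to 198 CPM. The pharyngeal arch and neural crest list stood at 2440 CPM against 1976 to 2150 CPM, and *rhcga* at 96.2 CPM against 1.65 to 43.4 CPM.

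In pool 8, the skeletal muscle list stood at 2426 CPM against 1206 to 1781 CPM, and the transcription factor *mafaa* at 39.6 CPM against 9.22 to 16.9 CPM. In pool 2, the neuronal list stood at 441 CPM against 210 to 295 CPM. No label separates these pools from the others, and what sets them apart was not tested.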

How the results depend on the processing

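No paired analysis was possible because only control libraries are described and no groups are compared. With all uniquely aligned reads as denominator, the 10 highest genes held 3.13% in place of 11.9%. Genes above 1 FPKM in every pool numbered 5462, against 9921 above 1 CPM. Variable genes numbered 1395 at 1.5 times the trend, 192 at 3 times and 292 by edgeR's tagwise dispersion, against 633, and 737 without pools 5 and 8 together (485 shared). The relation of cardiomyocyte and endocardial levels lost its call with library size alone (r = 0.617, exact permutation adjusted p = 0.137) and with log2(FPKM + 0.1) (r = 0.705, exact permutation adjusted p = 0.0677), and, as that of cardiomyocyte and epidermal levels, without any 1 of pools 1, 2, 3, 4, 6 and 7. No result reversed. With each pool left out in turn, values ranged from 11.5% to 12.3% for the 10 highest genes, 450 to 481 for genes holding 50% of reads, 9940 to 10256 for genes expressed in every pool, 56% to 58% for the shared top 50 and 614 to 716 for variable genes; r was 0.60 to 0.89 for cardiomyocyte and endocardial, −0.83 to −0.67 for epidermal, 0.21 to 0.70 for haemoglobin levels and 0.93 to 0.99 for *myh6* and *myh7*. The *myh6* and *myh7* relation kept its call in all 14 alternatives, but these are not all separate checks. For single genes, summed CPM equals the main measure, and both forms of log2 FPKM nearly repeat library-size scaling. The relations were not run with scaling on the cardiomyocyte list. CPM per coding length was not run, as no protein lengths were given in the reference tables used here.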

Other observations

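*he1.1*, a hatching enzyme gene known from the hatching gland and chosen here after its values were seen, ranked 54 by CPM and 17 by FPKM (1098 FPKM) in these hearts. It had 881 CPM in pool 3, a median of 1570 CPM and 2891 CPM in pool 4, and varied 2.13 times as much as the trend. Its lowest and highest pools were those of *krt4*, and its other pools lay between 1031 and 1715 CPM.

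The natriuretic peptide genes *nppa* and *nppb* kept a ratio of 2.01 ± 0.21 in FPKM, from 1.71 in pool 2 to 2.27 in pool 3, and of 9.11 ± 0.96 in CPM, as the spans behind the FPKM were 4.63 and 1.02 kb. *nppb* was the lower in every pool, with 872 CPM in pool 4 and 1391 CPM in pool 1. *rpl11*, a protein of the large ribosomal subunit, was the variable member of the cytosolic ribosome list, with 153 to 184 CPM in 7 pools and 396 CPM in pool 5. *h3f3d*, a histone H3.3 gene, had 60.2 to 117 CPM in 7 pools and 205 CPM in pool 5. Of 11 other red cell genes tested, 3 varied (*cahz*, *epb41b* and *slc4a1a*), against 8.03% of all genes. There were 4 without pool 5 and 2 without pool 7. In the same list *prdx2*, a peroxiredoxin, stayed between 309.7 and 362 CPM, whereas *hbbe1.1* ranged from 748 to 2054 CPM.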
